A study of Arabidopsis thaliana with 21 samples.

Results

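The regions described are places in the nuclear genome of *Arabidopsis thaliana* where a peak of monoubiquitinated histone H2A (H2AK121ub) and a peak of trimethylated lysine 27 of histone H3 (H3K27me3) lay over each other in wild-type Col-0 seedlings. In each replicate, a Col-0 H2AK121ub peak and a Col-0 H3K27me3 peak were taken as a pair when each was the peak of the other mark that overlapped it most, by at least 1 bp. This gave 6675 pairs of 21987 H2AK121ub and 10303 H3K27me3 peaks in replicate 1, and 6672 pairs of 22314 and 10192 peaks in replicate 2. Both peaks of a pair were found again in the other replicate for 5500 pairs. The pairs took in 30.4% and 29.9% of the H2AK121ub peaks of replicates 1 and 2, and 64.8% and 65.5% of the H3K27me3 peaks. The question asked of them was whether H2AK121ub was kept in the clfswn mutant where H3K27me3 was lost most.

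The mutant, labelled clfswn, was the clf28/swn7 double mutant in the Col-0 ecotype, and the control was wild-type Col-0. All were whole seedlings 7 days after germination (7 DAG), grown in long days on MS agar, and each chromatin sample pooled 150 seedlings of all tissues. For each mark, chromatin immunoprecipitation and sequencing (ChIP-seq) was done on 2 clfswn and 2 Col-0 samples, 8 libraries in all. Each clfswn library was set against a Col-0 library at the same peak limits. The limits of a peak differ between replicates, so reads of different replicates can come from peaks of unlike length. The series also holds H2AK121ub of the mutants lhp1 and atbmi1abc, which are used only at the end.

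Polycomb group proteins keep developmental genes silent in the tissues and stages where they are not needed. In Arabidopsis, CURLY LEAF (CLF) and SWINGER (SWN) are the methyltransferases of Polycomb repressive complex 2 (PRC2) that write H3K27me3 in vegetative tissue. The AtBMI1 proteins belong to PRC1, the complex that places ubiquitin on H2A, and LIKE HETEROCHROMATIN PROTEIN 1 (LHP1) binds H3K27me3. In one model of recruitment, PRC1 is brought to chromatin by H3K27me3, and in another it arrives first through DNA-binding proteins. Comparing the marks at the same places in a mutant without CLF and SWN sets their losses side by side.

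The Col-0 peaks of the pairs held 2710553 and 2829968 H2AK121ub reads in clfswn replicates 1 and 2, against 2994200 and 3162772 in Col-0. For H3K27me3 they held 998362 and 1332039 reads in clfswn, against 7993146 and 5228577 in Col-0. The total depth of the libraries is not given in the sources used here, so a level as a percent of Col-0 carries any difference in depth, whereas a difference between groups of pairs in the same libraries does not. The column of each table taken as the mutant is the library named first. For H2AK121ub the Col-0 column was shared with the tables of the other mutants, and for H3K27me3 the direction rests on the order of names alone. ChIP reads do not show whether CLF and SWN were disrupted. Peak limits are as deposited, on TAIR10. The files do not say if the first base of a chromosome is 0 or 1.

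Sequences at the centres of H2AK121ub peaks are shown for 7 pairs named below, to set regions where H2AK121ub was higher in clfswn beside regions where it was lower. Each is 100 bases of the plus strand of RefSeq's TAIR10.1, taken from the 300 bp around the centre of the Col-0 H2AK121ub peak of replicate 1. Capitals mark 4 motifs that were searched on both strands: the telo-box AAACCCTA (reverse TAGGGTTT), the GAGA repeat GAGAGA (reverse TCTCTC), the RY element CATGCA (reverse TGCATG) and the G-box CACGTG. Telo-boxes and GAGA repeats are motifs found in Polycomb response elements of plants, and RY elements are bound by B3-domain proteins such as VAL1 and ABI3. At DOT5, SHP1, AP3 and WUS the H2AK121ub level was higher in clfswn, and at AT1G75530, CKX5 and FLC it was lower.
DOT5, chr1:4551328-4551427: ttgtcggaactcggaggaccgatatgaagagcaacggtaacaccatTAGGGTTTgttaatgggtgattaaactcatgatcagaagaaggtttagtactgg
SHP1, chr3:21739386-21739485: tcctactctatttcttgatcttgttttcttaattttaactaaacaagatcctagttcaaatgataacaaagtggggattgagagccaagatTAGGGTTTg
AP3, chr3:20120912-20121011: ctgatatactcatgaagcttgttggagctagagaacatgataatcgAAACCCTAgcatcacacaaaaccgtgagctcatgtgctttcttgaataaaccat
WUS, chr2:7810502-7810601: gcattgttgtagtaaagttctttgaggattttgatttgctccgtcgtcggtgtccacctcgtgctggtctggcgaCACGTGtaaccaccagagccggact
AT1G75530, chr1:28358331-28358430: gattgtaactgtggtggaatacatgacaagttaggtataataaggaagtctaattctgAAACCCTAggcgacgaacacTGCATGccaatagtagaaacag
CKX5, chr1:28317080-28317179: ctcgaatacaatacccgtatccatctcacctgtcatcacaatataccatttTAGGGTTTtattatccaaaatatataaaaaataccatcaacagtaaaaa
FLC, chr5:3178886-3178985: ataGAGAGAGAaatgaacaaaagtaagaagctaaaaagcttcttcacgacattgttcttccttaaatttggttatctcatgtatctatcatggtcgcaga

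A telo-box stood in the windows of DOT5, SHP1 and AP3 and also in those of AT1G75530 and CKX5, so the motif was present on both sides. Every stretch shown holds a marked motif, so the stretches do not show how often motifs occur. Of the 99 windows of named pairs and list members, 12 held a telo-box, 32 a GAGA repeat, 23 an RY element and 8 a G-box. Over all pairs of replicate 1, a telo-box was found in 6.59% of windows in the quintile of pairs with most H3K27me3 loss and in 3.82% in the quintile with least, against 4.94% of windows of the same length at all 21987 Col-0 H2AK121ub peaks. G-boxes were found in 9.96% and 6.89% of these quintiles, against 5.61% at all peaks. RY elements, in 20.6% and 20.3%, were at about the same share in both quintiles, against 16.9% at all peaks, and GAGA repeats stood at 29.3% and 29.1%, against 34.3%. The median H2AK121ub ratio was 0.012 in pairs with a telo-box and −0.11 in pairs without. With and without a GAGA repeat it was −0.062 and −0.12. For the RY element it was −0.16 and −0.094, the other way round, and for the G-box −0.107 and −0.106. These shares and medians describe the pairs by the letters in their windows and were not tested.

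With no scaling, H2AK121ub reads over the pairs were near their Col-0 number while most H3K27me3 reads were gone. The change of each mark was taken as log2((clfswn reads + 1)/(Col-0 reads + 1)) over the Col-0 peak, with no scaling, and is called the ratio. The median H2AK121ub ratio was −0.11 in replicate 1 and −0.093 in replicate 2, which is 92.9% and 93.8% of Col-0. Over all Col-0 H2AK121ub peaks it was −0.25 and −0.22, and at those that overlapped no H3K27me3 peak −0.38 and −0.33. The median H3K27me3 ratio was −3.58 and −2.32, or 8.39% and 20.05% of Col-0, against −3.28 and −2.08 over all Col-0 H3K27me3 peaks. The replicates thus differed by much more in H3K27me3 than in H2AK121ub. These levels move with the scaling. The median H2AK121ub ratio over both replicates was −0.0997 unscaled, 0.083 with TMM (the trimmed mean of M values, which sets the typical peak to no change) and 0.13 with scaling by summed reads over peaks. For H3K27me3 it was −2.95 unscaled, −0.21 with TMM and −0.52 with summed reads, and 0.22 with summed reads when ribosomal RNA (rRNA) loci were left out, an alternative chosen after seeing the data. Nearly all pairs had fewer H3K27me3 reads in clfswn, 99.9% and 99.1%, whereas 61.1% and 60.6% had fewer H2AK121ub reads. An H2AK121ub ratio below −1 was found at 147 and 122 pairs, and one above 1 at 27 and 36.

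A peak call gave the same picture. The H2AK121ub peak was also called in clfswn at 96.8% and 97.4% of pairs in replicates 1 and 2, against 79.3% and 82.5% of the Col-0 H2AK121ub peaks that overlapped no H3K27me3 peak. The H3K27me3 peak was also called in clfswn at 58 pairs (0.87%) and 122 pairs (1.83%), against 0.73% and 1.41% of all Col-0 H3K27me3 peaks. Where 1 clfswn H2AK121ub peak lay over the Col-0 peak, its length was 106.6% and 105.4% of the Col-0 length on median. In the quintile with most H3K27me3 loss it was 108.6% and 108.2%, and in the quintile with least it was 102.2% and 101.3%. How far the lengths depend on the depth of the libraries was not tested.

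**Figure D1:**
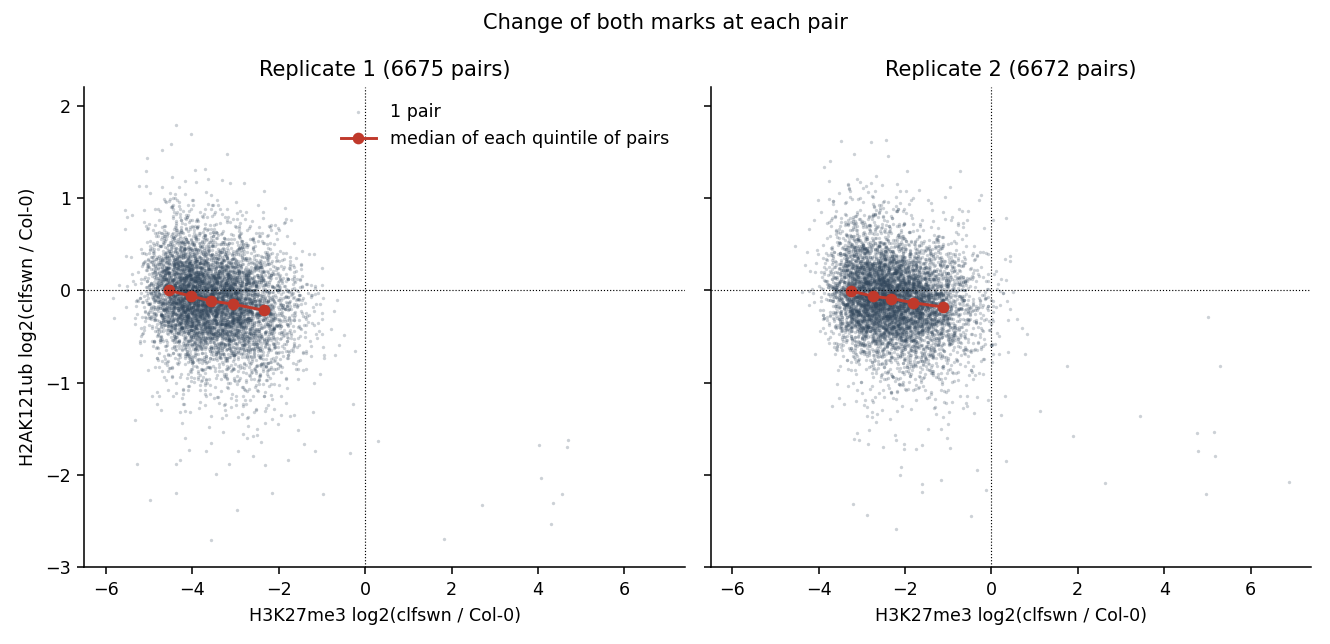
Each point is a pair, plotted by its H3K27me3 ratio (x axis) and its H2AK121ub ratio (y axis), both log2(clfswn / Col-0) of reads, with replicates 1 and 2 in separate panels and the medians of 5 quintiles joined by a line. The quintile medians of H2AK121ub lie at 0 and −0.0064 at the end with most H3K27me3 loss and at −0.22 and −0.18 at the end with least, and the points spread far more widely than the medians.

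The H2AK121ub ratio was higher where H3K27me3 was lost most. Pairs were cut into 5 quintiles by the H3K27me3 ratio in each replicate, with quintile 1 holding most loss (median 4.29% and 10.5% of Col-0 in replicates 1 and 2) and quintile 5 least (19.8% and 45.9%). In replicate 1 the median H2AK121ub ratio was 0 in quintile 1, −0.061 in quintile 2, −0.11 in quintile 3, −0.15 in quintile 4 and −0.22 in quintile 5. In replicate 2 it was −0.0064, −0.063, −0.089, −0.13 and −0.18 in the same order. The order of the 5 medians was the same in both replicates. Which quintile lay nearest its Col-0 level depended on the scaling, since with TMM the median fitted change was 0.17 in quintile 1 and −0.014 in quintile 5, whereas the difference between quintiles does not depend on it. Quintile 1 stood above quintile 5 by 0.22 and 0.17, a mean of 0.20 ± 0.03 (SD, n = 2) and thus larger than the spread between replicates in this difference. With 2 replicates the smallest two-sided sign-flip p is 0.5, so no test was made. On all 5 chromosomes of both replicates quintile 1 was the higher one.

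Pairs under 80% of the Col-0 H2AK121ub level made up 17.8% and 18.0% of quintile 1, against 38.7% and 34.3% of quintile 5. Pairs over 120% made up 23.3% in both replicates of quintile 1, against 9.81% and 11.8% of quintile 5. Even in quintile 5 the H2AK121ub peak was called in clfswn at 93.6% and 95.4% of pairs, against 99.0% and 99.1% of quintile 1. Across pairs, Spearman's correlation of both ratios was −0.20 (n = 6675) and −0.18 (n = 6672), and Pearson's was −0.25 and −0.22. Pairs share libraries and neighbouring pairs share domains, so these are descriptions. The H2AK121ub ratio of replicate 1 against the H3K27me3 ratio of replicate 2 gave a Spearman correlation of −0.21 over the 5500 pairs, and the reverse gave −0.16. The relation was therefore also seen between libraries of different replicates.

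The order by H3K27me3 loss was close to the order by H3K27me3 density in Col-0. Reads left in clfswn varied less, with medians of 30.4 and 51.4 H3K27me3 reads per kb in quintile 1 and 51.0 and 88.1 in quintile 5. In Col-0 the medians were 744 and 505 reads per kb in quintile 1 and 254 and 183 in quintile 5. Spearman's correlation of the H3K27me3 ratio with Col-0 density was −0.83 and −0.80 over the same pairs, and the Col-0 reads are the denominator of that ratio. The Col-0 H3K27me3 peaks were also longer in quintile 1, with medians of 2867 and 2694 bp, against 542 and 552 bp in quintile 5. H2AK121ub density varied less along the quintiles, with 459 and 445 reads per kb in clfswn and 439 and 426 in Col-0 in quintile 1. In quintile 5 it was 327 and 333 reads per kb in clfswn and 365 and 357 in Col-0.

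**Figure D2:**
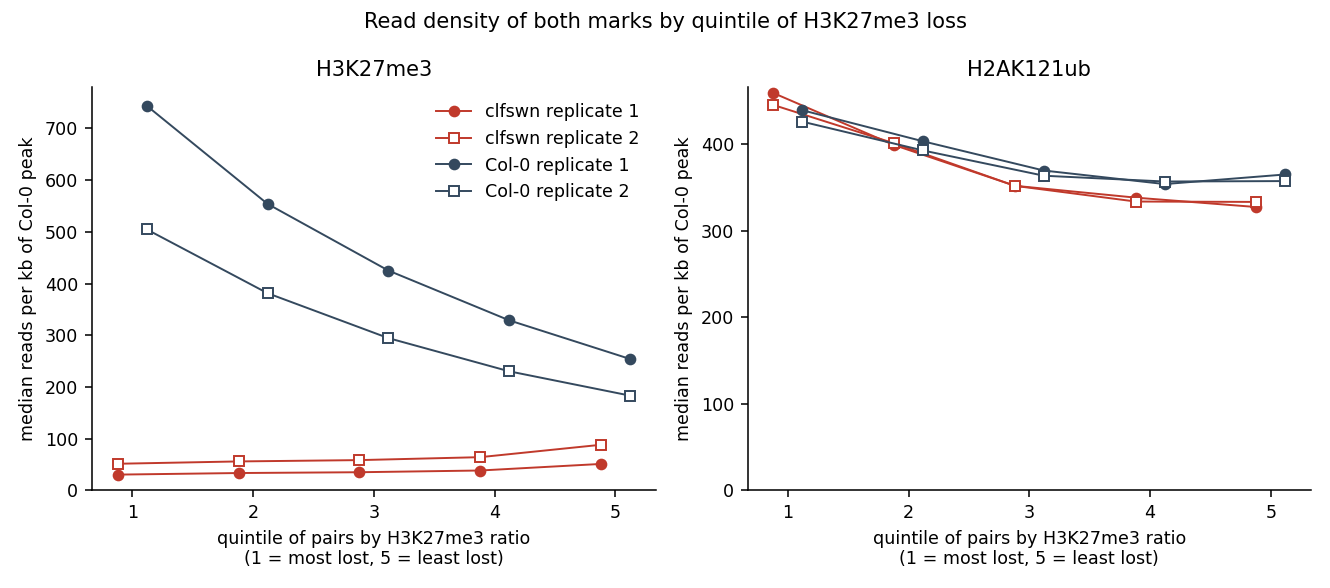
Median reads per kb of Col-0 peak (y axis) are drawn for the 5 quintiles of pairs by H3K27me3 ratio (x axis, 1 = most lost), with the clfswn and Col-0 libraries of both replicates as lines, H2AK121ub and H3K27me3 in separate panels. The H3K27me3 lines of Col-0 descend to 254 and 183 reads per kb at quintile 5 while those of clfswn stay at or below 88.1, and the H2AK121ub lines of clfswn and Col-0 run close together.

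When pairs were compared at like Col-0 H3K27me3 density, little of the relation was left at low density. Within 5 bins of Col-0 density, the difference between the quintiles averaged 0.058 over bins and replicates (0.019 in replicate 1 and 0.097 in replicate 2). In the bin of lowest density it was −0.11 and −0.016, so that the pairs with most loss had the lower H2AK121ub ratio there. In bins 2 and 3 from the lowest the difference was −0.025 and −0.0051 in replicate 1, but 0.070 and 0.12 in replicate 2. In the bin of highest density it was 0.15 and 0.17. Within bins of H3K27me3 peak length the difference averaged 0.082, and within bins of Col-0 H2AK121ub density 0.22. The H2AK121ub ratio itself followed the length of the Col-0 H3K27me3 peak, with medians of −0.21 and −0.17 in the bin of shortest peaks and 0.042 and 0.027 in the bin of longest peaks. Loss, density and length of H3K27me3 go together in these pairs, and which of them the H2AK121ub ratio follows cannot be told apart.

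Single pairs were tested with edgeR's quasi-likelihood test on the reads of all matched peaks of a mark, and a pair was called at a Benjamini-Hochberg adjusted p under 0.05 with a fitted level under 80% or over 120% of Col-0. For H2AK121ub, scaled by TMM, 1377 of the 5500 pairs (25.04%) were higher in clfswn and 624 (11.3%) lower. Over the 19422 matched H2AK121ub peaks called in Col-0, 16.2% were higher and 22.3% lower, so the share of higher pairs was above this background and that of lower pairs below it. The 21944 peaks of the fit, of which 20.6% were higher and 19.7% lower, also include 2522 peaks called in clfswn only, which cannot form a pair. TMM lifted every H2AK121ub ratio by 0.18 in both replicates. With no scaling, 654 pairs were higher and 1275 lower, so the split turned round. Without the replicate block 209 were higher and 170 lower, and DESeq2 gave 426 and 276. Peak limits differ between replicates, and the fit holds no term for peak length. The block takes up these differences, whereas without it they add to the spread between libraries. Their part in the lower counts without the block was not tested. A block cannot be kept when 1 library is left out, so these fits compare with the counts without the block. There edgeR called 0 pairs in either direction without clfswn replicate 1 or 2, where 511 and 647 were higher and 400 and 388 lower at an unadjusted p under 0.05. It called 18 higher and 26 lower without Col-0 replicate 1, and 29 higher and 40 lower without Col-0 replicate 2.

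For H3K27me3, fitted with no scaling because TMM takes most peaks as unchanged, 3787 pairs (68.9%) were lower and 8 (0.145%) higher. Over the 9098 matched H3K27me3 peaks called in Col-0, 60.2% were lower and 0.176% higher. Over all 10185 peaks of the fit 53.8% were lower and 9.78% higher, and 1087 of these peaks were called in clfswn only. TMM, which sets the typical loss to no change, gave 2241 lower and 873 higher pairs, of which 837 higher pairs were in quintile 5. All 8 pairs with higher H3K27me3 are described below, and 7 of them lay near rRNA genes.

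The calls followed the same order along quintiles cut on the mean H3K27me3 ratio of both replicates, of 1100 pairs each. H2AK121ub was called higher at 413, 328, 258, 200 and 178 pairs in quintiles 1 to 5, and lower at 70, 89, 122, 130 and 213. With no scaling the counts higher were 222 in quintile 1 and 77 in quintile 5, and the counts lower 175 and 359. The unscaled H2AK121ub ratio was above 0 in both replicates at 430 pairs of quintile 1 and 212 of quintile 5, and below 0 in both at 449 of quintile 1 and 661 of quintile 5. Of the 3787 pairs with lower H3K27me3, 1081 had higher H2AK121ub, 352 had lower H2AK121ub and 2354 had no H2AK121ub call. Of the 1705 pairs without an H3K27me3 call, 296 had higher and 264 lower H2AK121ub. Lower H3K27me3 was called at 1100, 1100, 1098, 481 and 8 pairs of quintiles 1 to 5. The pairs without a call thus lay almost all in quintiles 4 and 5. Median H3K27me3 ratios there were −2.50 and −1.85, so a missing call does not mean that H3K27me3 was kept. The difference between pairs with lower H3K27me3 and pairs without a call was not tested.

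The pairs with the lowest H3K27me3 ratios of all held 81.8% to 190.01% of their Col-0 H2AK121ub reads. Among pairs whose peaks each held at least 50 Col-0 reads in each replicate, the 8 with the lowest mean H3K27me3 ratio kept 3.30% to 3.73% of Col-0 H3K27me3 reads. They lay at AT5G02350 (a C1-domain protein), AT5G50140 (an ankyrin repeat protein), AT5G02460 (a Dof zinc finger protein), AT2G03040 (an emp24/p24 protein), AT5G06380, HIPP22, GulLO6 and AT2G46640. H2AK121ub was called higher at 6 of them (3 with no scaling) and not called at HIPP22 and GulLO6. Over quintile 1, where all 8 lay, 37.5% of pairs were called higher (20.2% with no scaling).

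The pair at AT5G02350 held 34 and 53 H3K27me3 reads in clfswn replicates 1 and 2, against 1616 and 1071 in Col-0. Its H2AK121ub peak held 455 and 797 reads in clfswn, against 352 and 656 in Col-0. Both clfswn libraries were thus above the Col-0 library of the same replicate in H2AK121ub, and both H3K27me3 libraries of clfswn lay far below Col-0. The H2AK121ub peak spans bases 496489 to 497316 in replicate 1 and 495932 to 497378 in replicate 2. Its reads are therefore compared only within a replicate. The fitted H2AK121ub change was 0.50 (log2, edgeR adjusted p = 6.1e-05) and that of H3K27me3, for which the pair was picked, −4.94.

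At AT5G06380, a gene of unknown product, H2AK121ub reads were 386 and 355 in clfswn, against 211 and 179 in Col-0, with a fitted change of 1.11 (log2, edgeR adjusted p = 4.08e-10). H3K27me3 reads were 80 and 155, against 3802 and 2530. The groups did not overlap in either mark, and the marks moved in opposite directions. At HIPP22, whose annotated product is a heavy-metal-associated isoprenylated protein, H2AK121ub reads were 770 and 843 in clfswn, against 945 and 1026 in Col-0, and H3K27me3 reads were 22 and 65, against 1301 and 875. Here the H2AK121ub libraries of clfswn were both below those of Col-0, and the fitted change of −0.11 after scaling did not pass (edgeR adjusted p = 0.336).

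Within the quintile of most H3K27me3 loss, the 5 pairs with the highest H2AK121ub ratios had 207% to 249% of the Col-0 H2AK121ub reads. They lay at AT4G12050, NAC067, LSH2, DOT5 and AT1G12490. AT4G12050 is AHL26, an AT-hook protein that binds DNA, NAC067 a NAC transcription factor, LSH2 a member of the LIGHT SENSITIVE HYPOCOTYLS family and DOT5 a C2H2 zinc finger protein of the WIP group.

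AT4G12050 had 1095 and 1019 H2AK121ub reads in clfswn, against 447 and 403 in Col-0, and 184 and 280 H3K27me3 reads in clfswn, against 6199 and 4107 in Col-0. LSH2 had 830 and 787 H2AK121ub reads in clfswn, against 353 and 390 in Col-0, and 202 and 301 H3K27me3 reads, against 4476 and 2913. DOT5 had 391 and 516 H2AK121ub reads in clfswn, against 144 and 298 in Col-0, and 172 and 313 H3K27me3 reads, against 5753 and 3843. In these 3 genes the clfswn libraries lay wholly above Col-0 in H2AK121ub and wholly below it in H3K27me3, and fitted H2AK121ub changes were 1.50, 1.30 and 1.26 (log2, edgeR adjusted p = 1.92e-17, 1.66e-14 and 3.18e-11). Since the pairs were picked for their H2AK121ub ratio, these p-values only describe how the libraries compared.

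The 5 pairs with the lowest H2AK121ub ratios in the same quintile lost both marks. They lay at AT4G20690, AT4G32220 (a pseudogene), GATA13, a GATA-type zinc finger transcription factor, AT1G75530, a forkhead-associated domain protein, and AT2G09130, a long noncoding RNA. AT4G32220 had 155 and 171 H2AK121ub reads in clfswn, against 753 and 853 in Col-0, and 98 and 226 H3K27me3 reads, against 3129 and 2107. GATA13 had 86 and 95 H2AK121ub reads in clfswn, against 320 and 292 in Col-0, and 212 and 324 H3K27me3 reads, against 4443 and 2958. No clfswn library reached a Col-0 library in either mark. AT1G75530, whose window carries both a telo-box and an RY element in the sequences above, had 293 and 329 H2AK121ub reads in clfswn, against 776 and 785 in Col-0, and 89 and 183 H3K27me3 reads, against 3616 and 2388. All 5 pairs kept 20.1% to 41.7% of the H2AK121ub reads, while H3K27me3 was at 4.38% to 8.07%.

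**Figure D3:**
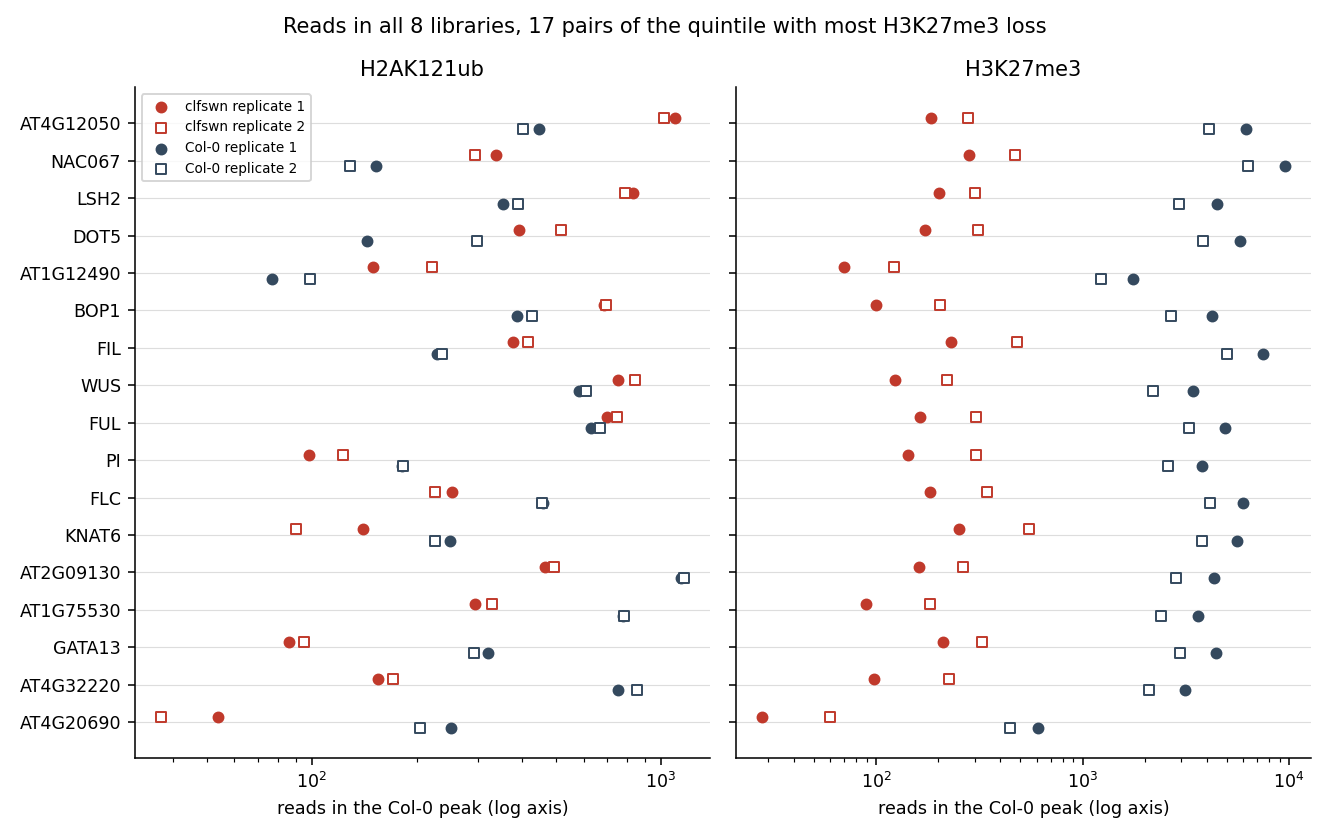
Reads in the Col-0 peak (x axis, log scale) are plotted for 17 pairs of the quintile with most H3K27me3 loss, H2AK121ub in one panel and H3K27me3 in the other, with clfswn above Col-0 in each line, filled circles for replicate 1 and open squares for replicate 2. H3K27me3 of clfswn lies far left of Col-0 at every pair, whereas H2AK121ub of clfswn lies right of Col-0 in the upper lines (AT4G12050 1095 and 1019 reads, against 447 and 403) and left of it in the lower ones (GATA13 86 and 95, against 320 and 292).

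At the other end, the 8 pairs with the highest H3K27me3 ratios were 7 pairs within 10 kb of rRNA genes of chromosomes 2 and 3 and 1 in an intergenic stretch of chromosome 3. The 7 rRNA pairs held 487008 and 499094 H3K27me3 reads in clfswn, 48.8% and 37.5% of all clfswn H3K27me3 reads over pairs, against 26115 and 16626 in Col-0, 0.33% and 0.32%. Their H2AK121ub reads summed to 2893 and 3165 in clfswn, against 11984 and 9909 in Col-0. H3K27me3 was higher and H2AK121ub lower at the same loci, and H2AK121ub was called lower at all 8 pairs. The authors kept unique alignments with up to 2 mismatches. The part of the many copies of rRNA genes in these reads was not tested. Without the rRNA pairs Pearson's correlation of both ratios was −0.22 and −0.20, and the summed H3K27me3 reads over pairs were 6.42% and 16.0% of Col-0 in place of 12.5% and 25.5%.

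Most pairs lay on gene bodies near the start. The 5500 pairs were assigned to 4900 genes, with the centre of the H2AK121ub peak a median of 463 bp downstream of the gene start. The centre was in a coding exon in 58.8% of pairs, in an intron in 12.6%, upstream of the gene in 12.4% and intergenic in 4.6%. The median H2AK121ub ratio was −0.046 for centres in coding exons and −0.12 for those in introns, against −0.24 upstream of genes and −0.24 between genes. The median H3K27me3 ratio varied less, with −3.02 and −3.03 in coding exons and introns, and −2.86 and −2.90 upstream of and between genes. Quintile 1 held more centres in coding exons than quintile 5, 62.8% against 55.6%. The centres lay 518.5 bp from the gene start in quintile 1 and 445 bp in quintile 5.

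Developmental regulators were then followed as lists. Of 133 genes in 12 lists, 73 had a pair, and 31, 23, 11, 6 and 2 of these fell into quintiles 1 to 5, so they lay towards the side of most loss. Their median H3K27me3 ratio was −3.51 and their median H2AK121ub ratio 0.050, against −2.97 and −0.096 over all 5500 pairs. H2AK121ub was higher at 33 of the 73 (45.2%) and lower at 11 (15.1%) with TMM, against 25.04% and 11.3% of all pairs. With no scaling it was higher at 21 (28.8%) and lower at 15 (20.5%), against 11.9% and 23.2% of all pairs. H3K27me3 was lower at 66 (90.4%), against 68.9% of all pairs, and higher at 0. The counts of the single lists below are to be read beside these shares of all pairs. None of the 18 Polycomb group genes searched, CLF and SWN among them, had a pair.

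Of 13 floral organ identity genes, which encode MADS-box proteins that specify floral organs, 6 had a pair, with a median H2AK121ub ratio of 0.37 and a median H3K27me3 ratio of −3.71. H2AK121ub was higher at 4 and lower at 1, and H3K27me3 was lower at all 6. SHP1, which with SHP2 shapes the fruit margin, had 129 and 190 H2AK121ub reads in clfswn, against 59 and 94 in Col-0, and 118 and 218 H3K27me3 reads, against 2354 and 1457. SHP2 had 130 and 200 H2AK121ub reads in clfswn, against 90 and 102 in Col-0, and 69 and 92 H3K27me3 reads, against 1786 and 1187. AP3, a petal and stamen gene, had 256 and 350 H2AK121ub reads in clfswn, against 216 and 184 in Col-0, and 148 and 258 H3K27me3 reads, against 2358 and 1531. These 3 genes had no clfswn H2AK121ub library below a Col-0 library, with fitted changes of 1.24, 0.95 and 0.77 (log2, edgeR adjusted p = 9.57e-08, 8.78e-06 and 1.01e-05). PI, the partner of AP3, went the other way with 98 and 123 H2AK121ub reads in clfswn, against 181 and 182 in Col-0, a fitted change of −0.54 (edgeR adjusted p = 0.0056). Its H3K27me3 reads were 143 and 306, against 3766 and 2578. FUL, which acts in fruit and flowering, was near its Col-0 level with 700 and 746 H2AK121ub reads, against 632 and 671, and was called with TMM only.

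Of 12 flowering-time genes 7 had a pair, with a median H2AK121ub ratio of −0.053. H2AK121ub was higher at 1 and lower at 1. FLC, the repressor of flowering that vernalization silences, had 252 and 225 H2AK121ub reads in clfswn, against 458 and 455 in Col-0, a fitted change of −0.75 (edgeR adjusted p = 6.54e-07). Its H3K27me3 peak held 182 and 345 reads in clfswn, against 5997 and 4139 in Col-0. FLC thus lost both marks, with no overlap of the groups. FT, the mobile flowering signal, had 172 and 185 H2AK121ub reads in clfswn, against 168 and 204 in Col-0, and 97 and 497 H3K27me3 reads, against 1971 and 1242. The H2AK121ub reads of FT overlapped between the groups, and neither mark passed there (edgeR adjusted p = 0.50 and 0.058). LFY, which turns on floral organ genes, had 1456 and 1391 H2AK121ub reads in clfswn, against 1265 and 1372 in Col-0, and was called higher with TMM only. SOC1, a flowering integrator, had 545 and 582 H2AK121ub reads in clfswn, against 741 and 745 in Col-0, and was called lower only with no scaling.

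Among 7 seed maturation regulators, which drive the embryo programme, 5 had a pair. H2AK121ub was higher at 3 (1 with no scaling) and lower at 2, with a median ratio of 0.095, and H3K27me3 was lower at all 5. FUS3 had 554 and 673 H2AK121ub reads in clfswn, against 468 and 462 in Col-0. LEC1 had 895 and 907 in clfswn, against 809 and 879 in Col-0. Both were above Col-0 in each replicate, although the LEC1 call was lost with no scaling. ABI3, a B3-domain regulator, had 478 and 965 H2AK121ub reads in clfswn, against 1158 and 1649 in Col-0, a fitted change of −0.82 (edgeR adjusted p = 1.77e-09). Its H3K27me3 reads were 436 and 719, against 6311 and 3577, and the peak was still called in both clfswn replicates. DOG1, a dormancy gene, had 394 and 433 H2AK121ub reads in clfswn, against 531 and 646 in Col-0. In each replicate ABI3 and DOG1 were below Col-0 in both marks.

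The homeobox and PLETHORA families were mixed. Of 13 WOX genes, which act in stem cell niches, 8 had a pair, with a median H2AK121ub ratio of 0.21, 4 higher and 0 lower. WUS, the stem cell gene of the shoot meristem, had 754 and 845 H2AK121ub reads in clfswn, against 583 and 611 in Col-0, a fitted change of 0.60 (edgeR adjusted p = 1.02e-06), and 123 and 221 H3K27me3 reads, against 3411 and 2199. WOX5 of the root niche had 337 and 360 H2AK121ub reads, against 380 and 357, which overlapped. Of 8 KNOX genes 4 had a pair, with 1 higher and 2 lower. KNAT1, a meristem gene, had 263 and 237 H2AK121ub reads in clfswn, against 105 and 191 in Col-0, and KNAT6 had 140 and 90, against 249 and 226. These 2 relatives therefore moved apart in H2AK121ub (fitted changes of 0.96 and −0.88, edgeR adjusted p = 3.62e-06 and 1.11e-05), while H3K27me3 was at 12.8% and 8.13% of Col-0.

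All 8 PLETHORA and ANT genes, AP2-domain regulators of embryo and root stem cells, had a pair. H2AK121ub was higher at 5 and lower at 2 (2 and 2 with no scaling), with a median ratio of 0.18, and H3K27me3 was lower at all 8 (4 with TMM). BBM had 794 and 582 H2AK121ub reads in clfswn, against 450 and 300 in Col-0, a fitted change of 1.07 (edgeR adjusted p = 1.09e-11). AIL5 had 349 and 351 in clfswn, against 1099 and 1115 in Col-0, a fitted change of −1.48 (edgeR adjusted p = 6.26e-17). Within the family, BBM and AIL5 stood at opposite ends, each with no overlap of the groups. PLT1 had 377 and 373 H2AK121ub reads in clfswn, against 332 and 343 in Col-0. PLT2 had 93 and 110, against 70 and 96, and both calls were lost with no scaling.

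A list of 12 genes of organ boundaries, which separate organs from the meristem, and of lateral organs and flowers had a pair at 6, with 3 higher and 1 lower in H2AK121ub and a median ratio of 0.26. BOP1 had 685 and 697 H2AK121ub reads in clfswn, against 388 and 428 in Col-0, and 100 and 204 H3K27me3 reads, against 4251 and 2692. CUC3 had 963 and 928 H2AK121ub reads, against 506 and 501, and 55 and 103 H3K27me3 reads, against 960 and 591. CUC1, a NAC relative of CUC3, had 1592 and 1533 H2AK121ub reads in clfswn, against 2708 and 2698 in Col-0, and only 22 and 44 H3K27me3 reads, against 218 and 107. CUC3 and BOP1 were thus higher in H2AK121ub and CUC1 lower (fitted changes of 1.09, 0.94 and −0.61, edgeR adjusted p = 3.78e-13, 1.81e-10 and 4e-08). The H3K27me3 peak of CUC1 covered part of a longer H2AK121ub peak and was in quintile 4.

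Leaf polarity genes, which set the upper and lower sides of the leaf, had a pair at 10 of 14, with 4 higher, 1 lower in H2AK121ub and a median H2AK121ub ratio of −0.0020. FIL had 377 and 415 H2AK121ub reads in clfswn, against 229 and 236 in Col-0, and 230 and 481 H3K27me3 reads, against 7455 and 5004. CNA, an HD-ZIP III gene, had 316 and 388 H2AK121ub reads in clfswn, against 508 and 524 in Col-0, and 42 and 127 H3K27me3 reads, against 115 and 147. CNA was 1 of the 2 list members in quintile 5, with few H3K27me3 reads in Col-0, and its H2AK121ub was called lower. Of 6 stomatal lineage genes 4 had a pair (1 higher, 0 lower, and 0 and 0 with no scaling), among them MUTE with 310 and 479 H2AK121ub reads in clfswn, against 294 and 465 in Col-0. Of 15 auxin synthesis and transport genes 11 had a pair (5 higher, 0 lower, and 2 and 1 with no scaling). Of 7 cytokinin oxidase genes, whose enzymes degrade cytokinin, 4 had a pair, and CKX3 and CKX5 differed in direction. CKX3 had 824 and 842 H2AK121ub reads in clfswn, against 524 and 475 in Col-0, and CKX5 had 2092 and 2177, against 2762 and 3322 (fitted changes of 0.92 and −0.32, edgeR adjusted p = 9.45e-11 and 0.00108).

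**Figure D4:**
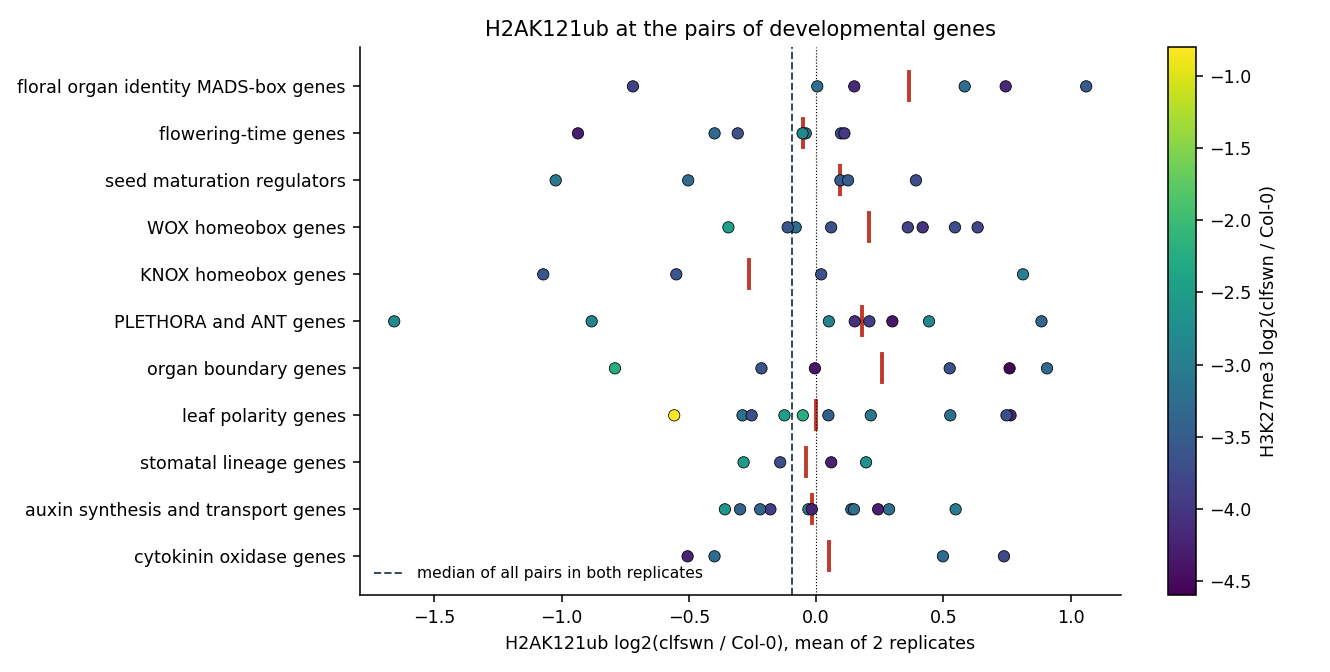
Each point is a listed gene with a pair, placed by its mean H2AK121ub log2 ratio of clfswn to Col-0 and coloured by its H3K27me3 ratio, with a red bar for the list median and a dashed line for the median of all 5500 pairs (−0.096). Members of a list spread to both sides of the dashed line, from AIL5 at −1.66 to SHP1 at 1.06.

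Pairs whose H3K27me3 peak was still called in clfswn were looked at after the values were seen. This was so in both replicates at 42 pairs. Their median H2AK121ub ratio was −0.85 in replicate 1 and −0.69 in replicate 2, against −0.098 and −0.095 at the 5381 pairs without an H3K27me3 peak in either clfswn replicate. H2AK121ub was called lower at 27 and higher at 8 of the 42, against 581 and 1346 of the 5381. Of all pairs 11.3% were lower and 25.04% higher, and the counts that follow are to be read beside these shares. The 26 with an H3K27me3 ratio below 0 in both replicates leave out the rRNA pairs, but also others such as AGP9, AAP1 and BETA-VPE. The medians of the 26 were −0.39 and −0.43, with 13 lower and 7 higher. At the 110 pairs with a clfswn H3K27me3 peak in replicate 2, the medians were −0.29 and −0.20, with 40 lower and 30 higher. Among the 42, H2AK121ub was called lower at ABI3, AIL5, KNAT6, AGP9, AGP10, the transporter gene AAP1 and the seed protease gene BETA-VPE. It was called higher with TMM only at ABI4, the cruciferin gene CRA1 and the microRNA gene MIR156a. Both with TMM and with no scaling it was higher at AT4G21020, AT1G68250, AT1G48990, AT3G11930 and LEA (AT2G21490). The oleosin gene OLEO1 was not called. The seedlings were pooled, so reads left from some cells and fewer reads in all cells cannot be told apart.

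At the same pairs, the H2AK121ub ratios of the other mutants were read from their own tables, which share the Col-0 H2AK121ub libraries with clfswn. In lhp1 the median ratio over pairs was 0.30 and 0.018, and in atbmi1abc −1.33 and −0.78, all unscaled. Quintile 1 of H3K27me3 loss in clfswn stood above quintile 5 by 0.071 and 0.060 in lhp1 and by 0.13 and 0.13 in atbmi1abc, against 0.22 and 0.17 in clfswn. The sign was the same in all 3 mutants and the difference was widest in clfswn. Because the Col-0 reads are common to these ratios, the values are given side by side and their differences were not tested.

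**Figure D5:**
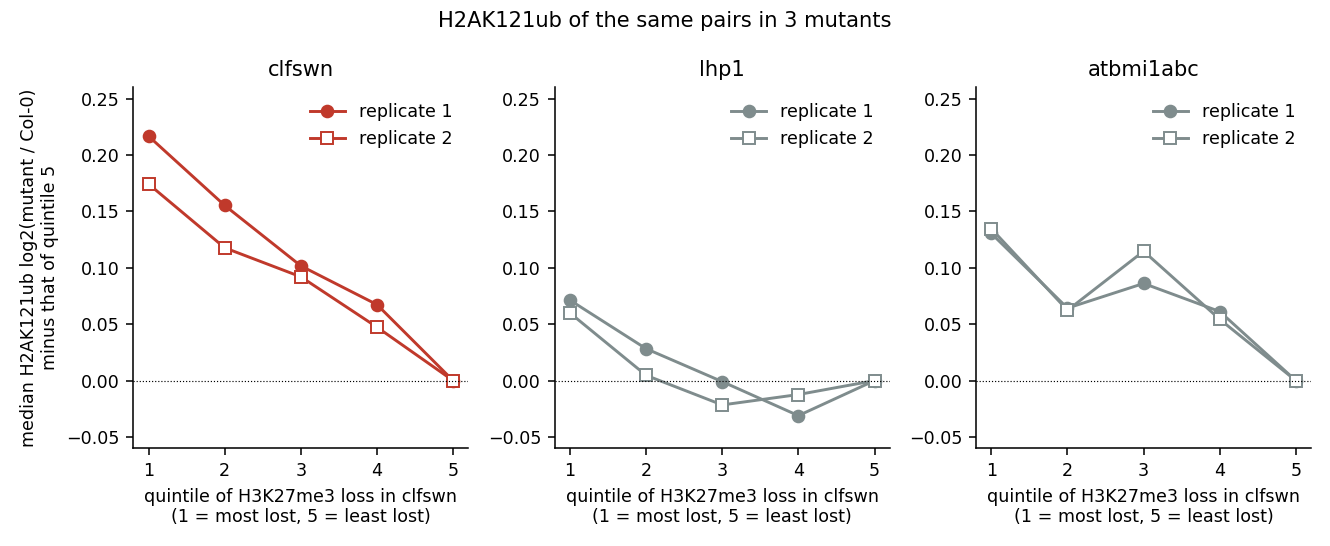
The median H2AK121ub log2 ratio to Col-0 of each quintile of pairs (x axis, by H3K27me3 loss in clfswn, 1 = most lost) minus that of quintile 5 (y axis) is drawn in a panel each for clfswn, lhp1 and atbmi1abc, with filled circles for replicate 1 and open squares for replicate 2. The clfswn lines start at 0.22 and 0.17 and descend at each step, whereas the lhp1 lines start at 0.071 and 0.060 and the atbmi1abc lines at 0.13, both without a steady descent.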

How the data were processed

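Reads of the 8 libraries were mapped by the authors to TAIR10 with bowtie (unique alignments, up to 2 mismatches), and peaks were called per library with MACS2 against a common input. The deposited tables join the peaks of a clfswn and a Col-0 library and give whole, unscaled read counts per peak for each. Their rescaled log2 ratios, mean log2 intensities and p-values are the authors' own comparison and were not used. The 2 tables of H3K27me3 in atbmi1abc were not used either.

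Pairs, ratios and correlations were computed with Python 3.11.15, pandas 2.3.3 and scipy 1.17.1. Peaks of the replicate tables were matched by mutual best overlap and fitted with edgeR 4.0.16 (R 4.3.3), after its default filter on low counts. The replicate was a block, because same-numbered libraries are set side by side and matched peaks differ in limits between replicates. Deviations of same-numbered libraries from their group means correlated by 0.15 for H2AK121ub and 0.085 for H3K27me3. The labels do not name a shared batch. DESeq2 1.42.0 was an alternative. The fit was also run on simulated counts with 200 changed peaks and equal depth in all libraries. This setting does not cover a loss at most peaks, as in the H3K27me3 libraries here. Genes were taken from TAIR10.1, whose nuclear chromosomes no Col-0 peak of the clfswn tables overran, by overlap or a start up to 2 kb downstream.

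The pairs named were the 8 lowest and 8 highest in mean H3K27me3 ratio among pairs with at least 50 Col-0 reads per peak, and the 5 lowest and 5 highest in H2AK121ub ratio within the quintile of most loss. From the lists, well-known members were taken. The values of 1 list member are not reported here. Members and lists were chosen with earlier results of these data known. Replicates are independent biological samples per the study's methods. Reads without molecular identifiers are not independent molecules.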

Additional observations from a re-analysis of the deposited data

Results flagged for a closer look

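Peaks on organelle chromosomes are in none of the comparisons above. In the H3K27me3 tables, 71 chloroplast peaks of replicate 1 held 43740 reads in clfswn, against 3008 in Col-0, and 18 chloroplast peaks of replicate 2 held 148189 reads in clfswn, against 4809 in Col-0. The H2AK121ub tables list 0 chloroplast peaks.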

How the results depend on the processing

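The correlation of both ratios (−0.19) and the difference between quintiles (0.20) do not depend on scaling. Leaving out a replicate in turn gave −0.20 to −0.18 and 0.17 to 0.22. At an overlap of at least 50% they were −0.16 and 0.16. The correlation was −0.071, −0.082 and −0.22 within bins of Col-0 H3K27me3 density, H3K27me3 length and Col-0 H2AK121ub density, and the difference 0.058 and 0.082 within the first 2 of these. With 3 groups in place of 5 the difference was 0.15 and with 10 it was 0.24. The median H2AK121ub ratio (−0.0997 over both replicates, −0.11 to −0.093 without a replicate in turn) turned to 0.083 with TMM, 0.13 with scaling by summed reads and 0.13 with that scaling and rRNA loci left out, and was −0.080 at 50% overlap. The median H3K27me3 ratio (−2.95, −3.58 to −2.32 without a replicate in turn) was −0.52 with summed reads and −0.21 with TMM, and turned to 0.22 with summed reads and rRNA loci left out. Alternatives with rRNA loci left out were chosen after seeing the data.

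For pairs lower in H2AK121ub (624), the counts were 1275 with no scaling, 276 with DESeq2 and 0 to 40 when 1 library was left out together with the block. For pairs higher (1377) they were 654, 426 and 0 to 29. Without the replicate block alone they were 170 lower and 209 higher, which is what the fits with 1 library left out compare with. For pairs lower in H3K27me3 (3787), the counts were 2241 with TMM, 1878 with DESeq2 and 1648 with summed reads and rRNA loci left out, and 3640 to 5202 with 1 library left out together with the block, against 5281 without the block alone. For pairs higher (8), they were 873 with TMM, 297 with summed reads, 364 with DESeq2, 1500 with summed reads and rRNA loci left out, and 9 without the block, with or without 1 library left out. A group left with 1 library is assumed to vary like the other. The cause of these shifts was not tested, but each scaling sets another level as no change. Of the values for named pairs under all alternatives, 235 no longer passed and 15 newly passed in the same direction. Of those called in the main fit, 2 reversed: H3K27me3 at KNAT1 (0.048) and AIL5 (0.22) with summed reads and rRNA loci left out. The other 854 were counted as unchanged. These include any sign change of a value not called in the main fit, such as H3K27me3 at CNA, fitted at −0.82 and called higher with TMM. Depth limits mainly the H3K27me3 reads left in clfswn, a median of 54 and 89 per pair.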

Other observations

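A pair of replicate 2 at the gene AT5G10340 on chromosome 5 had 8445 H3K27me3 reads in clfswn, against 70 in Col-0, with 201 H2AK121ub reads in clfswn, against 853 in Col-0. In replicate 1 the H3K27me3 peak there was called only in clfswn, with 8016 reads, against 21 in Col-0, so it formed no pair, and the H2AK121ub peak over it held 203 reads in clfswn, against 1005 in Col-0. The place was picked after its values were seen.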
